A study of Mus musculus with 18 samples.

Results

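The genes described here are 10 genes that cells switch on under endoplasmic reticulum (ER) stress and in the integrated stress response: Hspa5, Xbp1, Atf4, Atf3, Ddit3, Trib3, Asns, Herpud1, Fgf21 and Gdf15. They were taken by gene symbol from a table of raw read counts of 55487 genes, by a rule that uses no measured value, although the set was proposed with earlier results of these data known. The symbols matched 11 entries, of which 1, a second Ddit3 gene model (ENSMUSG00000116429) of 105 exonic bases inside the Ddit3 locus, had no count in any library and was left out. All 10 genes passed the filter on low counts in every comparison below, so none is missing from the counts.

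RNA-Seq was done on the livers of 18 male C57BL/6J mice, 1 library per mouse, to ask what a Western-type diet does to the liver transcriptome and whether overexpression of lysosomal acid lipase (LAL, encoded by LIPA) in hepatocytes changes it. Mice were bought at 7 weeks of age, injected with an adeno-associated virus (AAV8) and, 1 week later, fed for 16 weeks before liver collection after a 4 h fast. CON-GFP mice (n = 6) received virus carrying GFP and a purified control diet. FPC-GFP mice (n = 6) received the same GFP virus and the FPC diet, a high-fat diet with added fructose, palmitate and cholesterol that was given together with fructose-glucose water. FPC-LIPA mice (n = 6) received virus carrying human LIPA in place of GFP and the FPC diet. Every mouse therefore carried a viral vector, whose TBG promoter is active in hepatocytes, and no library of LIPA mice on the control diet is analysed here. FPC-LIPA and CON-GFP differ in diet and in vector, which cannot be told apart in that comparison.

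The ER folds secreted and membrane proteins, and a hepatocyte secretes many of them. When unfolded protein builds up, 3 sensors in the ER membrane (IRE1, PERK and ATF6) start the unfolded protein response, which raises chaperones such as BiP and the machinery that removes misfolded protein. PERK is also one of the kinases that phosphorylate the translation factor eIF2, as do kinases that sense amino acid shortage, viral RNA or low heme. This shared arm, the integrated stress response, slows protein synthesis in general while ATF4 protein is made from an mRNA that is then better translated, and ATF4 induces genes of amino acid supply, further transcription factors and, in liver, secreted hormones. Much of ATF4 and XBP1 regulation occurs in translation and splicing, which counts of reads per gene do not show.

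Total counts per library were between 16632146 and 37739301. Of the FPC-LIPA libraries, 3 (mice 36, 37 and 39) stood apart, with 6.42, 7.92 and 8.09% of their counts on 79 cytosolic ribosomal protein genes, where the other 15 libraries had from 1.43 to 2.94%. Values of the members that involve FPC-LIPA are also given without these 3 libraries. Summed over 8 markers, macrophage genes were at 107 to 221 CPM (counts scaled to the library total) in CON-GFP livers, 286 to 577 CPM in FPC-GFP and 615 to 1138 CPM in FPC-LIPA. The 8 hepatocyte markers summed to 66852 to 98698 CPM, 60757 to 84486 CPM and 49387 to 74438 CPM in the same order, and none of them was at or near 0 in any group. The mouse Lipa gene (205 to 291 CPM in CON-GFP livers, 263 to 426 CPM in FPC-GFP and 216 to 413 CPM in FPC-LIPA, scaled by library size) does not check the human transgene, whose reads are not counted in a gene of their own.

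Promoters of the 10 genes were searched for the short sequences through which these pathways are known to act, because members that share such a sequence can be set beside their levels. The windows ran from 250 bases before to 50 bases after each RefSeq start site (GRCm38.p6), all 10 symbols matched, and both strands were read in 32851 windows of all genes. The ER stress response element (CCAAT and CCACG 9 bases apart) occurred in Hspa5 and in 0.119% of all windows. Its second form (ATTGG and CCACG 1 base apart) occurred in Herpud1 and in 0.0365% of windows. The core of the C/EBP-ATF response element (TGATGNAA), which ATF4 binds, occurred in Asns, Atf3, Fgf21, Herpud1 and, after the start site, Trib3, against 3.97% of windows. The motifs TGACGTGG (0.676% of windows) and TGACGTCA (1.79%) matched no member, and no motif matched in the windows of Xbp1, Atf4, Ddit3 and Gdf15. CCACG is shared by the first 2 motifs and by the opposite strand of TGACGTGG, but no 2 matches overlapped in a member. A match is a run of letters, and binding was not measured. The stretches around the matches, read 5′ to 3′ on the strand of the gene with the matched letters in capitals, are shown because they are the promoter sequences in which members differ.
Hspa5, chr2:34772010-34772058, plus strand, ER stress response element: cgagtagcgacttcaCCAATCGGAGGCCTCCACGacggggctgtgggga
Herpud1, chr8:94386302-94386402, plus strand, TGATGNAA on the opposite strand and then the second form of the ER stress response element: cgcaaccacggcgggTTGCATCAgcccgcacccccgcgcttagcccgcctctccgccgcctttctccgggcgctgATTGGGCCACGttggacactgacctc
Asns, chr6:7693210-7693247, minus strand, TGATGNAA on the same strand: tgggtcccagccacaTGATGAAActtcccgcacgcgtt
Atf3, chr1:191183421-191183458, minus strand, TGATGNAA on the opposite strand: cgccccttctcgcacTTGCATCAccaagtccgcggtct
Fgf21, chr7:45615607-45615644, minus strand, TGATGNAA on the opposite strand: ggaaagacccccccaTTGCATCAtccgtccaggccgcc

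Levels of the 10 genes, expressed per length as CPM per kb of exon so that genes can be compared, spanned a wide range in control livers. Herpud1 (217 ± 55 CPM per kb, SD, n = 6) and Hspa5 (143 ± 39.6) led in CON-GFP, and their ranges overlapped. Xbp1 (64.7 ± 11.7 CPM per kb) and Atf4 (48.9 ± 3.52) came next, apart from Hspa5 above and from Gdf15 below. Gdf15 (16.2 ± 8.10 CPM per kb) and Fgf21 (10.1 ± 4.31) overlapped each other, as did Ddit3 (4.29 ± 1.12) and Trib3 (2.94 ± 1.28). Atf3 (1.26 ± 0.241 CPM per kb) and Asns (0.373 ± 0.375) were lowest, with overlapping ranges. In FPC-GFP the order changed in that Hspa5 (167 ± 73.7 CPM per kb) stood before Herpud1 (150 ± 26.7), Fgf21 (26.7 ± 9.12) before Gdf15 (18.7 ± 11.2), and Asns (3.32 ± 2.66) before Atf3 (2.79 ± 1.18), each of these pairs overlapping. In FPC-LIPA, Atf4 (41.2 ± 4.34 CPM per kb) stood before Xbp1 (40.1 ± 14.6), again with overlap, and Atf3 (5.18 ± 2.22) stood before Ddit3 (4.53 ± 1.24) and Trib3 (3.64 ± 0.966), overlapping with both.

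**Figure D1:**
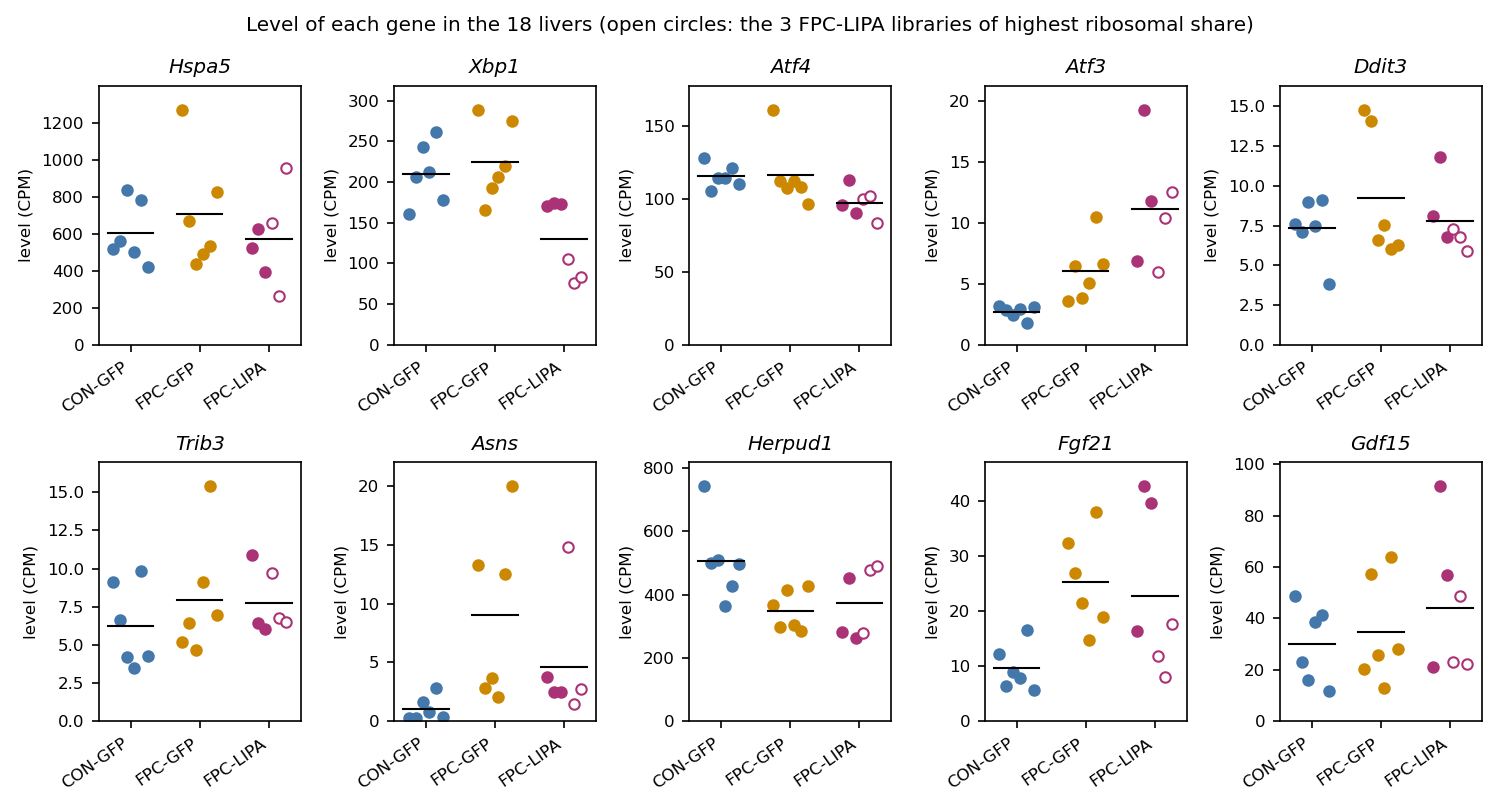
Level of each of the 10 genes (y axis, CPM scaled by TMM over 18 libraries) in each liver of the 3 groups (x axis, 1 point per mouse, line at the mean of 6). Asns is below 3 CPM in every CON-GFP liver and reaches 12.5 to 20.0 CPM in 3 FPC-GFP livers, Atf3 does not overlap between CON-GFP and FPC-GFP, and Xbp1 is lowest in the 3 FPC-LIPA libraries of highest ribosomal share, drawn as open circles.

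On the FPC diet with the GFP vector, 4 of the 10 genes changed against CON-GFP: Asns, Fgf21 and Atf3 rose and Herpud1 fell. The test was edgeR's quasi-likelihood test with Benjamini-Hochberg adjustment over all 14307 genes tested, and a gene passed at an adjusted p under 0.05. Of all tested genes 23.8% passed, 12.9% higher and 10.9% lower. The 3 that rose also exceeded a fold change of 2, as did 4.76% of all genes in that direction, while Herpud1 did not fall 2-fold, which 2.44% of all genes did. The median log2 fold change (log2FC) of the 10 genes was 0.27, beside 0.01 for all genes tested. Fitted values were above 0 for 8 of the 10, as for 51.2% of all genes.

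Between FPC-LIPA and FPC-GFP only Xbp1 of the 10 genes passed, and it was lower. Among the 14620 genes tested, 21.2% passed, 14.4% higher and 6.87% lower, so 1 of 10 was not above the background. The median log2FC of the members was -0.20 and that of all genes 0.04. This comparison and the diet comparison share the 6 FPC-GFP libraries, and the comparisons with CON-GFP share the 6 CON-GFP libraries, so the values of different comparisons are not independent. Between FPC-LIPA and CON-GFP, Atf3, Asns and Fgf21 were higher and 0 members were lower by edgeR (1 at an unadjusted p under 0.05, 2 by the DESeq2 Wald test), where 14.7% of 14433 genes were higher and 8.20% were lower (3.25% at least 2-fold lower). The 10 genes had a median log2FC of 0.17 there, and all genes 0.04.

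**Figure D2:**
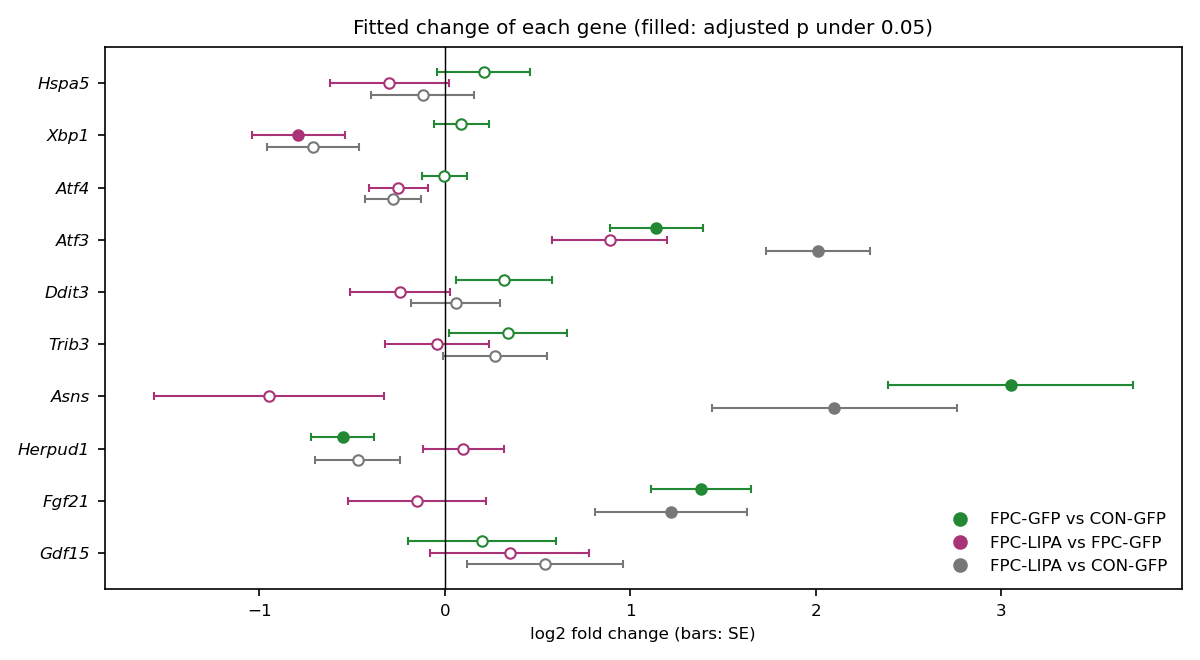
Fitted log2 fold change of each gene (x axis) in the 3 comparisons, with bars of 1 standard error and filled points where the adjusted p was under 0.05 (edgeR quasi-likelihood test, 6 libraries per group). Asns has the largest change with the diet, 3.05, and the widest error, 0.66, and Xbp1 is the only gene filled between FPC-LIPA and FPC-GFP.

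Hspa5 encodes BiP, the main Hsp70 chaperone of the ER and the classic readout of the unfolded protein response. Its lowest, median and highest levels were 420, 540 and 838 CPM in CON-GFP livers, 436, 603 and 1271 CPM in FPC-GFP, and 261, 575 and 953 CPM in FPC-LIPA. The 3 groups overlapped widely, with both extremes of the 18 livers on the FPC diet (1271 CPM in FPC-GFP 11 and 261 CPM in FPC-LIPA 39). The log2FC with the diet was 0.21 (SE 0.25, adjusted p = 0.556), and without FPC-GFP 11 it was -0.04. Against FPC-GFP, FPC-LIPA livers had -0.30 (SE 0.32, adjusted p = 0.491). The one chaperone among the 10 genes did not pass in any comparison.

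Herpud1, an ER membrane protein of the complex that passes misfolded protein to the proteasome, is induced by the unfolded protein response in many cells. It had 365, 499 and 743 CPM (lowest, median and highest) in CON-GFP livers, 285, 335 and 427 CPM in FPC-GFP, and 263, 367 and 490 CPM in FPC-LIPA. The highest control liver (CON-GFP 1) stood above all others, and 3 FPC-GFP livers were below every control. With the diet Herpud1 fell by 0.55 on the log2 scale (SE 0.17, adjusted p = 0.0277), a fold change of 0.683. Leaving out 1 library gave from -0.63 to -0.41, and the adjusted p became 0.0630 when CON-GFP 1 was omitted, and 0.0590, 0.0575 and 0.0646 when FPC-GFP 12, 16 or 19 was. The call was also lost with library size alone (-0.34, adjusted p = 0.0953) and with 18 libraries in one fit (-0.54, adjusted p = 0.112). Between FPC-LIPA and FPC-GFP the log2FC was 0.10 (SE 0.22, adjusted p = 0.738), and the FPC-LIPA livers lay in a low set of 3 (263 to 283 CPM) and a high set of 3 (452 to 490 CPM).

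Xbp1 encodes the transcription factor that IRE1 activates by cutting its mRNA, and the counts include the cut and the uncut form. Its lowest, median and highest levels were 161, 209 and 261 CPM in CON-GFP livers, 166, 213 and 289 CPM in FPC-GFP, and 75.7, 138 and 174 CPM in FPC-LIPA. CON-GFP and FPC-GFP overlapped over nearly their whole ranges, and the log2FC with the diet was 0.09 (SE 0.15, adjusted p = 0.706). The FPC-LIPA livers were in 2 sets, with 171, 173 and 174 CPM in mice 31, 34 and 33, and 105, 83.1 and 75.7 CPM in mice 36, 37 and 39. The latter were the libraries of high ribosomal share and the only FPC-LIPA livers below every FPC-GFP liver.

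Against FPC-GFP, Xbp1 fell by 0.79 on the log2 scale in FPC-LIPA (SE 0.25, adjusted p = 0.0385), a fold change of 0.580. Without the 3 libraries of high ribosomal share the value was -0.38 with an adjusted p of 0.285. Leaving out any 1 FPC-GFP library, or FPC-LIPA 36, 37 or 39, took the adjusted p to between 0.0521 and 0.0865, with fold changes on the log2 scale between -0.89 and -0.68 over all single omissions. Between FPC-LIPA and CON-GFP the value was -0.71 (SE 0.25, adjusted p = 0.0515), and -0.28 (adjusted p = 0.291) without the 3 libraries.

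Atf4, the central transcription factor of the integrated stress response, varied little between livers. It had 105, 114 and 128 CPM (lowest, median and highest) in CON-GFP livers, 96.5, 110 and 161 CPM in FPC-GFP, and 83.0, 97.7 and 113 CPM in FPC-LIPA. FPC-GFP 11, the same liver that was highest for Hspa5, stood alone at 161 CPM. The log2FC with the diet was -0.0023 (SE 0.12, adjusted p = 0.991), whose sign depends on the scaling and on single libraries. Between FPC-LIPA and FPC-GFP it was -0.25 (SE 0.16, adjusted p = 0.257) and between FPC-LIPA and CON-GFP -0.28 (SE 0.15, adjusted p = 0.178), with 5 FPC-LIPA livers below every control.

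Atf3, a stress-induced repressor and activator of the same bZIP family that also responds to inflammatory signals, rose with the diet. Its lowest, median and highest levels were 1.82, 2.90 and 3.18 CPM in CON-GFP livers, 3.55, 5.76 and 10.5 CPM in FPC-GFP, and 5.96, 11.1 and 19.3 CPM in FPC-LIPA. Every FPC-GFP liver and every FPC-LIPA liver lay above every CON-GFP liver, which held for no other of the 10 genes. Among all genes, 6.19% had FPC-GFP wholly above CON-GFP and 6.26% had FPC-LIPA wholly above CON-GFP. No member lay wholly below the controls, where 4.41% of all genes did in FPC-GFP and 4.84% in FPC-LIPA. The log2FC was 1.14 (SE 0.25, 2.20-fold, adjusted p = 0.00565) with the diet and 2.01 (SE 0.28, 4.03-fold, adjusted p = 0.000296) between FPC-LIPA and CON-GFP. Both calls held in every alternative, and without the 3 libraries of high ribosomal share the second value was 2.22 (adjusted p = 0.000275).

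Between FPC-LIPA and FPC-GFP the log2FC of Atf3 was 0.89 (SE 0.31, adjusted p = 0.0532), with 3 FPC-LIPA livers above every FPC-GFP liver, so a difference was not called. It was called in 6 of 23 alternatives, with an adjusted p of 0.0367 without FPC-GFP 19, the highest FPC-GFP liver (10.5 CPM), 0.0406 without FPC-LIPA 31, 0.0489 with DESeq2 size factors, 0.0237 by the DESeq2 Wald test, 0.0482 with a minimum of 1 CPM in 6 libraries and 0.0234 with 18 libraries in one fit. Over single omissions the value ran from 0.66 to 1.12. Macrophage marker levels moved in the same order over the groups, and their part in the result was not tested. In whole liver, more cells of a type and more RNA per cell cannot be told apart.

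Ddit3 encodes CHOP, a transcription factor linked to cell death in prolonged ER stress. It had 3.81, 7.55 and 9.10 CPM (lowest, median and highest) in CON-GFP livers, 6.00, 7.05 and 14.8 CPM in FPC-GFP, and 5.87, 7.02 and 11.8 CPM in FPC-LIPA. The medians were close, and FPC-GFP 11 and 12 (14.8 and 14.1 CPM) and FPC-LIPA 33 (11.8 CPM) were the only livers above the controls. The log2FC was 0.32 (SE 0.26, adjusted p = 0.396) with the diet and -0.24 (SE 0.27, adjusted p = 0.524) between FPC-LIPA and FPC-GFP.

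Trib3, a pseudokinase that ATF4 and CHOP induce and that feeds back on them, showed the same kind of spread. Its lowest, median and highest levels were 3.51, 5.44 and 9.86 CPM in CON-GFP livers, 4.64, 6.70 and 15.4 CPM in FPC-GFP, and 6.05, 6.64 and 10.9 CPM in FPC-LIPA. Only FPC-GFP 19 (15.4 CPM) and FPC-LIPA 31 (10.9 CPM) exceeded the controls. The log2FC with the diet was 0.34 (SE 0.32, adjusted p = 0.456), and it was -0.04 (SE 0.28, adjusted p = 0.931) between FPC-LIPA and FPC-GFP.

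Asns, asparagine synthetase and a standard ATF4 target, had the largest change of the 10 genes. It was at 0.258, 0.577 and 2.83 CPM (lowest, median and highest) in CON-GFP livers, 2.08, 8.12 and 20.0 CPM in FPC-GFP, and 1.45, 2.58 and 14.8 CPM in FPC-LIPA. In FPC-GFP the livers of mice 11, 19 and 20 were at 13.3, 12.5 and 20.0 CPM and those of mice 12, 13 and 16 at 2.08 to 3.69 CPM, and 5 of 6 were above every control. Control counts were low, at 7, 4, 43, 21, 101 and 10 in CON-GFP 1, 2, 3, 6, 7 and 8, against 69 to 426 in FPC-GFP. The log2FC with the diet was 3.05 (SE 0.66, 8.29-fold, adjusted p = 0.00473), a fold change over this low baseline. Leaving out 1 library gave from 2.67 to 3.71, all past the threshold.

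In FPC-LIPA, Asns was at 1.45 to 3.78 CPM in 5 livers and at 14.8 CPM in mouse 36. Against FPC-GFP the log2FC was -0.95 (SE 0.62, adjusted p = 0.261), and it was -1.81 (adjusted p = 0.0549) without FPC-LIPA 36. Against CON-GFP it was 2.1 (SE 0.66, adjusted p = 0.0338), but 1.27 (adjusted p = 0.125) without FPC-LIPA 36, and that call was also lost without CON-GFP 1, 2, 6 or 8 (adjusted p from 0.0630 to 0.0726). Without the 3 libraries of high ribosomal share it was 1.45 (adjusted p = 0.126).

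Fgf21, a hormone that the liver secretes in fasting, protein shortage and stress, rose with the diet. It had 5.67, 8.45 and 16.6 CPM (lowest, median and highest) in CON-GFP livers, 14.7, 24.1 and 37.9 CPM in FPC-GFP, and 7.99, 17.1 and 42.7 CPM in FPC-LIPA. Of the FPC-GFP livers 5 were above every control, and the FPC-LIPA livers reached from the control range to 39.6 and 42.7 CPM in mice 34 and 33. The log2FC was 1.38 with the diet (SE 0.27, 2.60-fold, adjusted p = 0.00283), and it was from 1.23 to 1.61 over single omissions, all past the threshold.

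For FPC-LIPA against FPC-GFP, Fgf21 had a log2FC of -0.15 (SE 0.37, adjusted p = 0.779), or 0.38 (adjusted p = 0.542) without the 3 libraries of high ribosomal share. Between FPC-LIPA and CON-GFP it was 1.22 (SE 0.41, adjusted p = 0.0415) and 1.77 (adjusted p = 0.00347) without those 3 libraries. This call was lost in 10 of 23 alternatives, 7 of them single omissions (CON-GFP 1, 2, 3, 6 and 8, FPC-LIPA 33 and 34) with adjusted p up to 0.0879.

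Gdf15, a stress hormone that acts on the hindbrain, varied widely within every group. It had 11.8, 30.8 and 48.7 CPM (lowest, median and highest) in CON-GFP livers, 12.9, 26.9 and 63.7 CPM in FPC-GFP, and 21.0, 36.0 and 91.5 CPM in FPC-LIPA. The lowest livers of CON-GFP and FPC-GFP were alike, and FPC-LIPA 33 stood highest. The log2FC was 0.20 (SE 0.40, adjusted p = 0.736) with the diet, 0.35 (SE 0.43, adjusted p = 0.565) between FPC-LIPA and FPC-GFP and 0.54 (SE 0.42, adjusted p = 0.362) between FPC-LIPA and CON-GFP.

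Each label ends in a number after the letter S, called the sample sheet number here, although the labels do not say what it means. These numbers ran from 55 to 68 for 14 libraries. Those of mice 1 and 2 (CON-GFP), 20 (FPC-GFP) and 37 (FPC-LIPA) lay outside. Mice 2, 20 and 37 also had the lowest total counts of all, 17741598, 17813507 and 16632146, so this split largely separates libraries by depth as well. The set outside was too small to give a value by itself. Within the other libraries the diet values were 2.27 for Asns (adjusted p = 0.0433), 1.43 for Fgf21 (adjusted p = 0.0139), 1.19 for Atf3 (adjusted p = 0.0291) and -0.44 for Herpud1 (adjusted p = 0.0731) on the log2 scale. For Xbp1 between FPC-LIPA and FPC-GFP the value was -0.62 (adjusted p = 0.131). Between FPC-LIPA and CON-GFP, Atf3 was at 2.06 (adjusted p = 0.00563), Asns at 1.78 (adjusted p = 0.144) and Fgf21 at 1.27 (adjusted p = 0.138).

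The other genes of the pathway were described from 8 lists that hold 101 genes of the table. With the diet 20 of 96 tested genes rose and 4 fell, with a median log2FC of 0.15. Among all genes 12.9% were higher and 10.9% lower, 23.8% together. The total of 24 is near that background, while the 20 that rose are above their share and the 4 that fell below theirs. The lists below are to be read against the same shares, and no list was tested as a set. Of the amino acid list, which holds genes of amino acid synthesis and transport like Asns, 9 of 14 tested genes rose and 2 fell, with a median of 1.16. Aldh1l2, a mitochondrial folate enzyme, was at 0.224 to 0.451 CPM in controls and 1.11 to 2.82 CPM in FPC-GFP, a log2FC of 2.35 (SE 0.30, adjusted p = 0.000235). Its counts were low, at 6 to 12 in controls and 37 to 78 in FPC-GFP. Pck2, mitochondrial phosphoenolpyruvate carboxykinase, was at 1.87 to 3.54 CPM and 4.43 to 9.33 CPM, a value of 1.31 (SE 0.20, adjusted p = 0.000742). In both genes the groups did not overlap.

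The serine synthesis genes Psat1, Phgdh and Psph also rose, by 2.19 (SE 0.62), 2.02 (SE 0.60) and 1.12 (SE 0.29) on the log2 scale. Phgdh was near the floor, at 1 to 18 counts in controls and 5 to 41 in FPC-GFP. Psat1 was at 10.1, 9.34 and 16.5 CPM in FPC-GFP 11, 19 and 20, and at 1.67 to 3.39 CPM in the other FPC-GFP livers. Psph was at 26.5 CPM in FPC-GFP 11 and at 6.92 to 13.5 CPM in the others of that group. The proline synthesis gene Aldh18a1 rose by 2.21 (SE 0.39), with 6 to 39 counts in controls and 51 to 193 in FPC-GFP. The folate enzyme gene Mthfd2 rose by 1.23 (SE 0.42, adjusted p = 0.0446). Against the direction of the list, Cth, which makes cysteine from cystathionine and is the most abundant of the list per length (63.9 CPM per kb), fell by 1.16 (SE 0.15, adjusted p = 0.000200) from 221 to 353 CPM to 100 to 167 CPM. The amino acid transporter Slc38a2 also fell, by 0.93 (SE 0.19), while the transporter genes Slc3a2 and Slc7a1 rose by 0.83 (SE 0.18) and 1.19 (SE 0.31). Slc7a1 had low counts, 2 to 22 in controls and 20 to 51 in FPC-GFP. Among the list's promoter windows TGATGNAA occurred in those of Pck2, Pycr1 and Slc7a11, and no window was at hand for Aldh1l2, Cth and Slc7a5.

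Aminoacyl-tRNA synthetases, which charge tRNA with amino acids and include ATF4 targets, had 5 of 12 tested genes higher with the diet and 0 lower by edgeR and by DESeq2 (8 and 0 at an unadjusted p under 0.05), with a median of 0.42. Gars, Iars and Yars rose by 0.49 (SE 0.14), 0.52 (SE 0.16) and 0.50 (SE 0.16) on the log2 scale. In each, the same 3 FPC-GFP livers (mice 11, 19 and 20) were above every control. These livers also had the highest Asns levels of the group, so the rises are not separate observations. Leaving out 1 library took the number of synthetases that passed to between 0 and 8.

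On the ER side of the pathway few genes passed with the diet. Of 17 ER chaperones and folding enzymes tested 0 passed by edgeR's quasi-likelihood test and 0 by the DESeq2 Wald test, with a median of 0.09. At an unadjusted p under 0.05 there was 1 higher and 0 lower, and in the other alternatives up to 2 were higher and up to 1 lower. P4hb, the most abundant of them per length (571 CPM per kb), was at 1471 to 1828 CPM in controls and 1325 to 1642 CPM in FPC-GFP. Of 8 UPR sensors and processing genes only Eif2ak3, which encodes PERK, passed, with a log2FC of 0.66 (SE 0.17, adjusted p = 0.0141) and 3 FPC-GFP livers above every control. Of 11 genes for eIF2 kinases, eIF2B and phosphatases 0 passed by edgeR and 1, lower, by DESeq2, 2 were higher and 1 lower at an unadjusted p under 0.05, and the median was 0.09. Of 14 genes of ER-associated degradation, Vcp, the ATPase that pulls proteins out of the membrane, rose by 0.55 (SE 0.13, adjusted p = 0.00891) without overlap, and Erlec1, a lectin that recognises misfolded glycoproteins, fell by 0.44 (SE 0.12, adjusted p = 0.0178).

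Among 13 tested stress-induced regulators, Nupr1 (1.38, SE 0.38), Vldlr (1.18, SE 0.36) and Tnfrsf10b (0.97, SE 0.32) rose with the diet and Ddit4, an inhibitor of mTORC1, fell by 1.24 (SE 0.32, adjusted p = 0.0133). Tnfrsf10b was outside the rule for named genes and is given because it completes a count of 3. The receptor side of the hormones is the list of 8 tested receptors and Fgf21 regulators, of which Klb, the co-receptor that FGF21 needs, rose by 0.38 (SE 0.13, adjusted p = 0.0410), from 10.3 to 16.1 CPM in controls to 16.0 to 19.9 CPM in FPC-GFP. Creb3l3, an ER-bound transcription factor that can induce Fgf21, was the most abundant of this list per length (102 CPM per kb) and had 289 to 453 CPM in controls and 242 to 385 CPM in FPC-GFP.

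**Figure D3:**
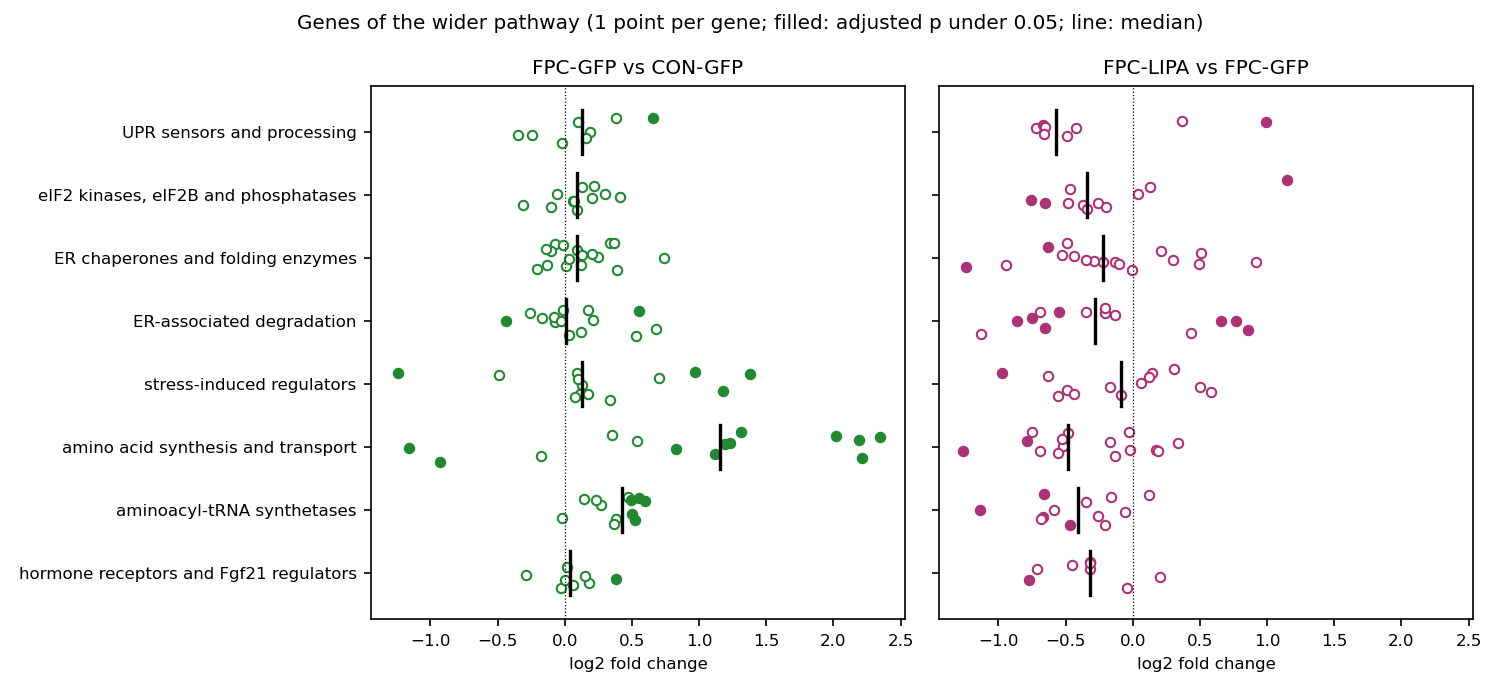
log2FC (x axis) of each tested gene of 8 pathway lists (y axis) with the diet (left) and between FPC-LIPA and FPC-GFP (right), 1 point per gene, filled where the adjusted p was under 0.05 and with a line at the median. Of the 14 amino acid genes 11 lie right of 0 with the diet, median 1.16, and the medians of all 8 lists are below 0 on the right.

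Between FPC-LIPA and FPC-GFP, 5 of 97 tested pathway genes were higher and 17 lower, with a median log2FC of -0.32 where all genes had 0.04. Of all genes 14.4% were higher and 6.87% lower, 21.2% together. The total of 22 is near that background, while the 17 lower genes are above their share and the 5 higher ones below theirs. Hyou1, an ER chaperone that works with BiP, fell by 1.24 (SE 0.40, adjusted p = 0.0400), from 78.5 to 300 CPM in FPC-GFP to 26.7 to 137 CPM in FPC-LIPA. Atf6, which encodes an ER stress sensor, fell by 0.67 (SE 0.20, adjusted p = 0.0351) without overlap, from 61.7 to 82.0 CPM to 24.6 to 57.7 CPM. Klb fell by 0.77 (SE 0.20, adjusted p = 0.0230), also without overlap, as did Vcp by 0.65 (SE 0.17, adjusted p = 0.0216). Of all genes 3.76% were wholly lower in FPC-LIPA than in that group. Of the FPC-LIPA livers, mice 36, 37 and 39 had the lowest levels of Hyou1, Atf6 and Klb. Without these 3 libraries of high ribosomal share the values were -0.72 for Hyou1, -0.34 for Atf6, -0.47 for Klb and -0.48 for Vcp. Their adjusted p by the edgeR test was then from 0.0886 to 0.348.

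In the amino acid list 0 of 15 tested genes were higher in FPC-LIPA, whether by edgeR, by DESeq2 or at an unadjusted p under 0.05. The 2 lower genes were Slc6a9, a glycine transporter, by 1.26 (SE 0.29, adjusted p = 0.0163) and Shmt2, which makes glycine from serine, by 0.79 (SE 0.26, adjusted p = 0.0416). Of the synthetases 4 of 12 were lower, with Aars, whose groups did not overlap, at 160 CPM or more in FPC-GFP and at 39.1 to 151 CPM in FPC-LIPA and a value of -1.14 (SE 0.30, adjusted p = 0.0219). Of the 5 higher genes 3 were Eif2s1, the eIF2 subunit that is phosphorylated, by 1.15 (SE 0.36), Tmed2, a protein of ER-to-Golgi transport, by 0.99 (SE 0.29), and Erlec1 by 0.86 (SE 0.27), with their highest levels in mice 36, 37 and 39, where Eif2s1 was at 113, 178 and 111 CPM against 32.1 to 48.2 CPM in the other FPC-LIPA livers. Without these 3 libraries 0 pathway genes passed the edgeR test in this comparison (1 higher and 16 lower at an unadjusted p under 0.05), and 186 of all genes did. The values of Aars, Slc6a9 and Shmt2 were then -0.61, -0.92 and -0.37, with adjusted p from 0.0604 to 0.273.

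**Figure D4:**
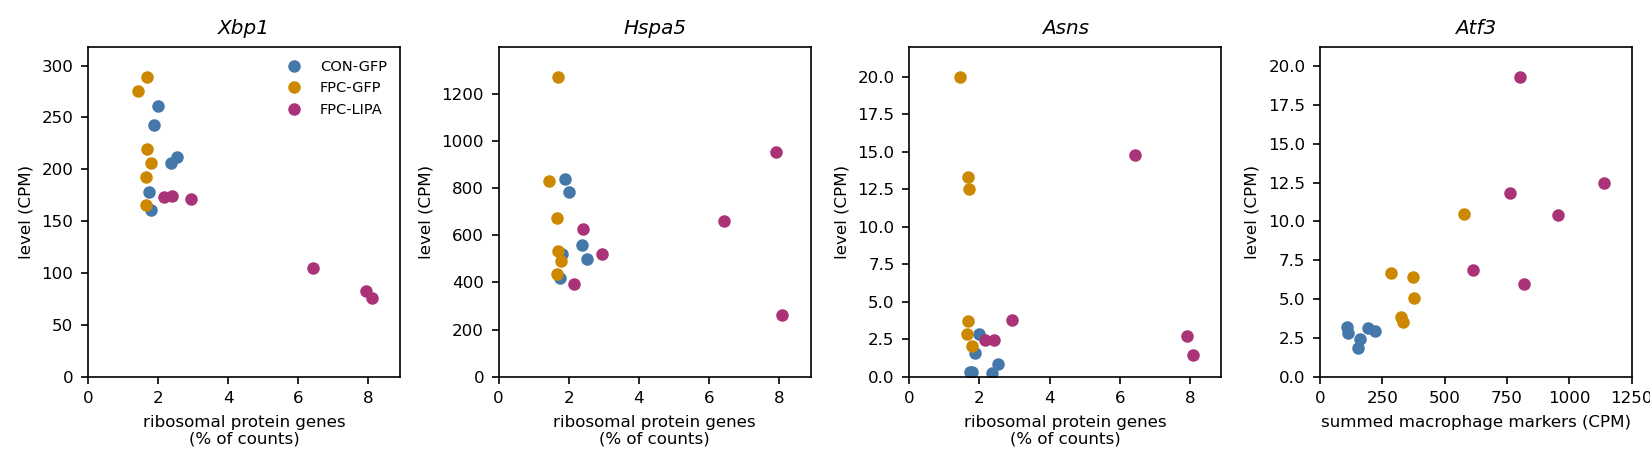
Levels of Xbp1, Hspa5 and Asns (y axis, CPM) against the share of counts on 79 ribosomal protein genes (x axis, percent), and of Atf3 against the summed macrophage markers (x axis, CPM), 1 point per liver coloured by group. The 3 libraries above 6% on the x axis have the 3 lowest Xbp1 levels of the 18 livers (75.7 to 105 CPM), while Hspa5 covers 261 to 953 CPM in the same libraries.

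The 3 FPC-LIPA libraries of high ribosomal share had the lowest Xbp1 levels, but did not lie in 1 direction for every member. They had Asns at 14.8, 2.70 and 1.45 CPM, Hspa5 at 659, 953 and 261 CPM and Fgf21 at 11.9, 17.7 and 7.99 CPM in mice 36, 37 and 39. The ribosomal protein genes were themselves higher in FPC-LIPA for 65 of 79 genes against FPC-GFP, with a median log2FC of 1.81, and lower in FPC-GFP than in CON-GFP for 63 of 79, with a median of -0.49. Their part in the results for the members was not tested. Without the 3 libraries the log2FC against FPC-GFP was -0.44 for Hspa5, -0.06 for Herpud1, -0.21 for Atf4, 1.08 for Atf3, -0.04 for Ddit3, -0.03 for Trib3, -1.63 for Asns and 0.71 for Gdf15, with adjusted p from 0.133 to 0.978. Against CON-GFP it was -0.23 for Hspa5, -0.61 for Herpud1, -0.21 for Atf4, 0.28 for Ddit3, 0.32 for Trib3 and 0.92 for Gdf15, with adjusted p from 0.105 to 0.573.

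Across the 18 livers each member was compared with the other genes that passed the filter, leaving out symbols of the Gm, Rik and -ps kinds. The measure was the root mean square difference of z-scored log2 CPM, where 0 is the same pattern. The values describe these livers and include differences between groups and libraries. Nearest to Hspa5 were the ER chaperone genes Dnajb11 (0.355) and Hsp90b1 (0.356). Nearest to Asns were Mthfd2 (0.363), a mitochondrial folate enzyme, and Psat1 (0.390), and nearest to Xbp1 were Edem2 (0.334), a gene of ER-associated degradation, and Elp3 (0.350).

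Atf3 was nearest to Naip5 (0.349), an innate immune receptor gene, and Pirb (0.355), a receptor gene of myeloid and B cells. For Herpud1 the nearest were Cebpb (0.430) and Slc38a2 (0.506), for Fgf21 Chrm3 (0.448) and Npnt (0.470), for Atf4 Tmprss2 (0.457) and Tssc4 (0.499). The distances of the remaining members were larger, with 0.643 for Trib3 and Pla2g12a, 0.674 for Ddit3 and Zdhhc24, and 0.713 for Gdf15 and Egr1. Among the 10 genes themselves, where each has only 9 others to be near to, the nearest pair was Asns and Fgf21 (0.848), then Atf3 and Fgf21 (0.906), and the farthest was Asns and Herpud1 (1.729).

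**Figure D5:**
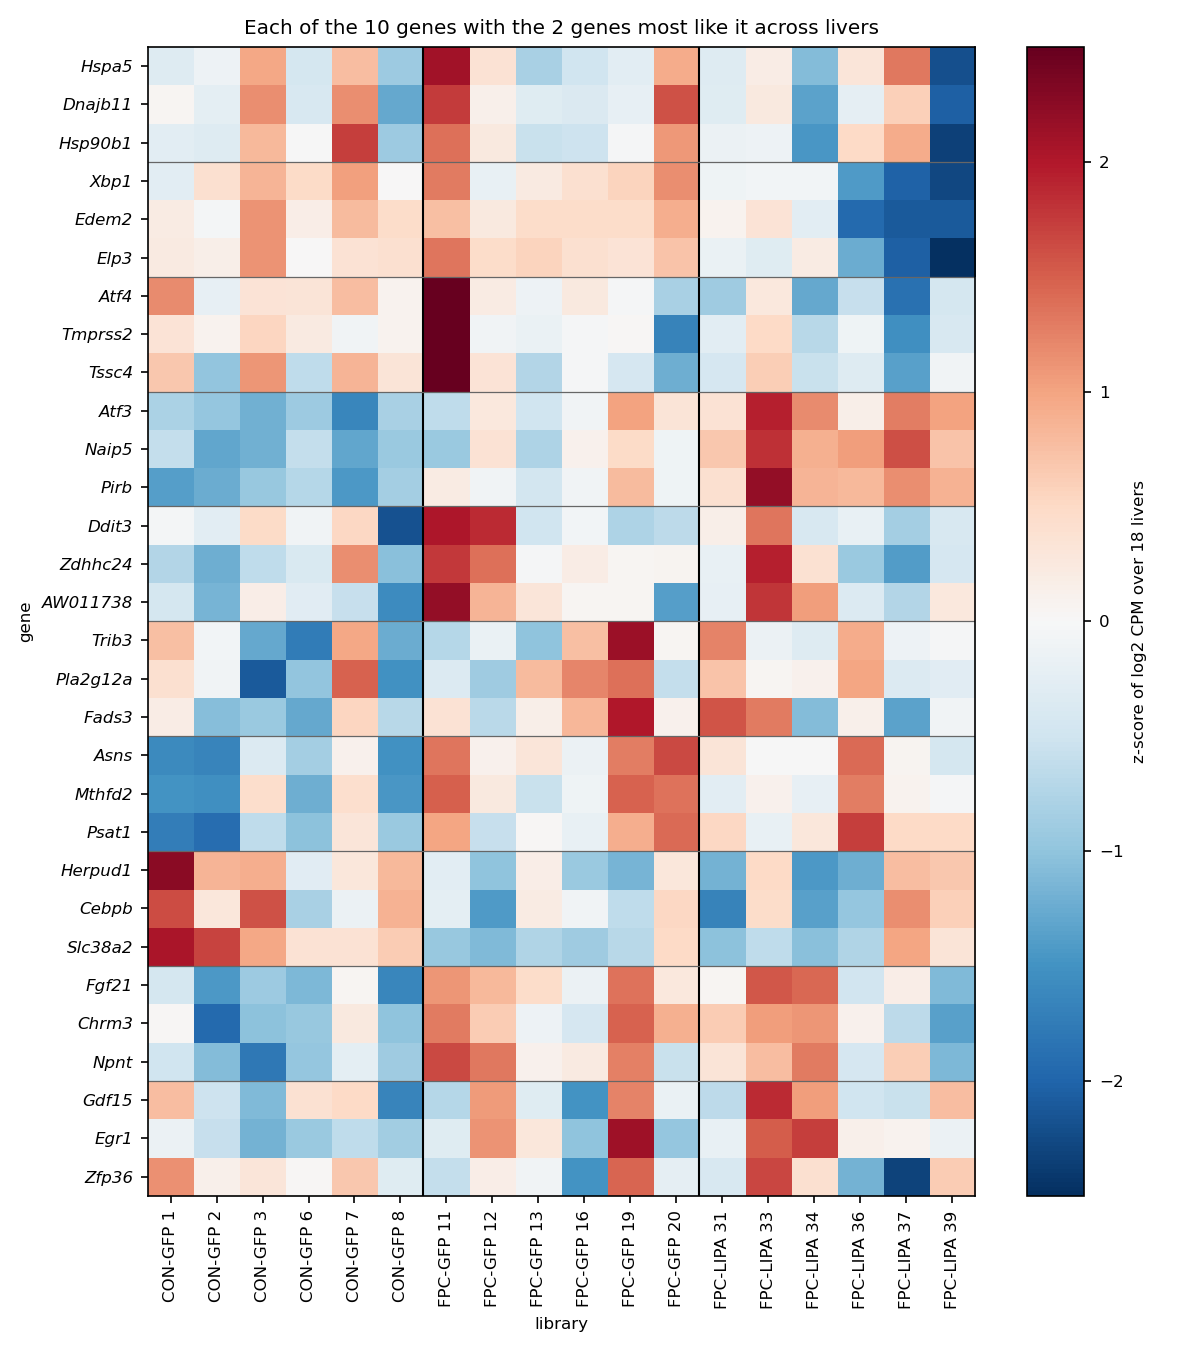
Each of the 10 genes with the 2 genes most like it (y axis, in sets of 3) in the 18 livers (x axis). Gm, Rik and -ps symbols were left out of the search. Colour is the z-score of log2 CPM over the 18 livers, with the scale ending at 2.5 in either direction. Asns, Mthfd2 and Psat1 share their high livers FPC-GFP 11, 19 and 20 and FPC-LIPA 36, and Xbp1, Edem2 and Elp3 share their low livers FPC-LIPA 36, 37 and 39.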

How the data were processed

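Liver RNA of 18 mice was sequenced as paired reads, 1 library per mouse. Per the labels and the methods of the study, the authors trimmed reads with Trimmomatic 0.33, mapped them with HISAT2 2.1.0 to GRCm38 (mm10) and counted them per gene with featureCounts of Subread. The deposited values are raw counts, not normalized. The kit of each library, the strand setting, the annotation version and the treatment of reads that map to several places are not given in the sources used here. Of 23 columns of counts, 5 name no sample analysed here and were not used. No row lacked a gene (0 rows).

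Each comparison used its own 12 libraries, which were filtered with filterByExpr, scaled by TMM and tested with the quasi-likelihood test of edgeR 4.0.16 in R 4.3.3, with Benjamini-Hochberg adjustment over all genes tested. A gene passed at an adjusted p under 0.05. The study also required a fold change of at least 2, which is applied here only where stated, and under which Herpud1 with the diet and Xbp1 between FPC-LIPA and FPC-GFP would not be called. The SE of a log2 fold change is its size over the root of F. CPM were scaled by TMM over 18 libraries, and log2 CPM used a prior count of 2. Libraries of a group differed by more than counting noise (chi-square per degree of freedom from 16.7 to 648), so errors are SD or SE over mice and no library was counted as a repeat.

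Alternatives tried were upper-quartile factors, DESeq2 size factors, library size alone, the DESeq2 1.42.0 Wald test, no filter, at least 1 CPM in 6 libraries, 18 libraries in one fit, sample sheet numbers from 55 to 68, removal of length and GC trends, other thresholds, omission of each library, and omission of the 3 FPC-LIPA libraries of highest ribosomal share. The members and all gene lists were chosen with earlier results of these data known. Of each list up to 3 genes with the smallest adjusted p among those that passed, in each of the first 2 comparisons, and the most abundant gene per length were named. Others of the amino acid list are given to complete its count. In the lists, 2 symbols (Mars and Vimp) were not matched in the table, and Ero1l is in 2 lists. Exon lengths came from the GENCODE M21 annotation of GRCm38 and promoters from RefSeq (GRCm38.p6). Tables and figures were made in Python 3.11.15 with matplotlib 3.10.9, numpy 2.4.6 and pandas 2.3.3.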

Additional observations from a re-analysis of the deposited data

Results flagged for a closer look

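In 3 of 30 groups tested (10 genes in 3 groups of 6 livers) the highest liver lay so far from the next that the gap exceeded Dixon's 95% critical value for 6 samples, 0.625 of the range. Chance alone gives about 1 in 20 such groups if values are normally distributed, which was not tested for these CPM. Atf4 was at 161 CPM in FPC-GFP 11 and between 96.5 and 112 CPM in the other FPC-GFP livers, a gap of 0.753 of the range. Asns was at 14.8 CPM in FPC-LIPA 36 and between 1.45 and 3.78 CPM in the others of its group (0.826 of the range). Ddit3 was at 11.8 CPM in FPC-LIPA 33 and between 5.87 and 8.07 CPM in the others (0.633 of the range).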

How the results depend on the processing

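No paired analysis was possible because the mouse numbers of the labels differ between all groups. Of the counts of genes that passed, 144 alternative values stayed within 1.5 times the one reported and 78 did not. Asns, Fgf21 and Atf3 kept their diet call in all 22 alternatives, which share these libraries. The cause of the changes below was not tested, except that stricter thresholds lower a count by construction. Values are given for the diet comparison, FPC-LIPA against FPC-GFP (LIPA comparison), and FPC-LIPA against CON-GFP (joint comparison).

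With 18 libraries in one fit, 1352 genes and 11 pathway genes passed in the diet comparison, and 4701 genes and 2 members in the LIPA comparison. Sample sheet numbers 55 to 68 gave 1995 genes and 10 pathway genes, then 104 genes, 0 pathway genes (5 higher and 23 lower at an unadjusted p under 0.05) and 0 members, then 1402 genes, 5 pathway genes and 1 member. A 2-fold minimum gave 1030 genes and 12 pathway genes, then 1671 genes, 4 pathway genes and 0 members, then 2176 genes and 9 pathway genes. At an adjusted p under 0.01 there were 1403 genes and 7 pathway genes, then 53 genes, 0 pathway genes and 0 members, then 1385 genes, 8 pathway genes and 1 member.

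Library size alone moves the median of all genes by 0.20, -0.13 and 0.09, and gave 38 pathway genes with the diet, 1438 genes, 4 pathway genes and 0 members in the LIPA comparison and 12 pathway genes in the joint one. It also moved the split of higher and lower genes, from 1850 and 1560 to 3387 and 692, from 2098 and 1004 to 1172 and 266, and from 2120 and 1184 to 2367 and 535, in that order. Upper-quartile factors gave 2282 higher and 575 lower genes, 12 pathway genes and 0 members in the LIPA comparison. There, no filter gave 11 pathway genes, and DESeq2 size factors, the DESeq2 Wald test and a minimum of 1 CPM each gave 2 members, Xbp1 and Atf3. The Wald test gave 5 members in the joint comparison. Without the 3 libraries of highest ribosomal share the LIPA comparison gave 186 genes, 0 pathway genes and 0 members.

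Leaving out 1 library gave from 14 (without CON-GFP 1 or FPC-GFP 19) to 28 pathway genes with the diet. In the LIPA comparison it gave from 1092 (without FPC-LIPA 36) to 5582 genes (without FPC-LIPA 33), from 3 to 34 pathway genes and from 0 to 2 members. Where edgeR gave 0 members there, 2 or 3 had an unadjusted p under 0.05. In the joint comparison it gave from 12 (without CON-GFP 3) to 26 pathway genes and from 1 to 4 members.

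Changes of sign occurred in members that had not passed. With the diet Xbp1 was at -0.06 within sample sheet numbers 55 to 68 and with length and GC trends removed, Gdf15 at -0.01 with those trends removed, and Atf4 at 0.01 with upper-quartile factors and with 18 libraries in one fit, 0.19 with library size alone, 0.0039 with no filter, 0.0023 with a minimum of 1 CPM and 0.06 within the sheet numbers. Single omissions gave from -0.11 to 0.05 for Atf4, -0.04 to 0.33 for Hspa5 and -0.06 to 0.40 for Gdf15. In the LIPA comparison Trib3 was at 0.17 with length and GC trends removed, Herpud1 at -0.06 with library size alone, -0.04 with the length trend removed and -0.06 without the 3 libraries, and Fgf21 at 0.38 without them, and single omissions gave from -0.16 to 0.26 for Trib3, -0.43 to 0.02 for Fgf21 and -0.01 to 0.61 for Gdf15. In the joint comparison Ddit3 was at -0.10 with the length trend removed and -0.14 with both, and single omissions gave from -0.12 to 0.12 for Ddit3 and -0.32 to 0.02 for Hspa5.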

Other observations

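Between FPC-LIPA and CON-GFP, where diet and vector cannot be told apart, 9 of 96 tested pathway genes were higher and 10 lower (edgeR quasi-likelihood test), where 14.7% of all genes were higher and 8.20% lower. In the stress-induced regulators Vldlr was at 10.2 to 16.3 CPM in FPC-LIPA, against 1.87 to 6.58 CPM in controls, a log2FC of 1.66 (SE 0.25, adjusted p = 0.000497) without overlap, and Nupr1 was higher by 1.67 (SE 0.38, adjusted p = 0.00657). In the amino acid list 5 of 14 genes were higher and 3 lower, with Aldh18a1 at 1.90 to 4.52 CPM against 0.387 to 1.27 CPM, a value of 2.07 (SE 0.33, adjusted p = 0.000654), and Cth at 90.2 to 148 CPM against 221 to 353 CPM, a value of -1.22 (SE 0.18, adjusted p = 0.000348). Creb3l3, at 156 to 274 CPM against 289 to 453 CPM, fell by 0.77 (SE 0.20, adjusted p = 0.0139) without overlap. Without the 3 libraries of high ribosomal share the values were 1.57 for Vldlr, 1.75 for Nupr1, 1.97 for Aldh18a1, -1.36 for Cth and -0.58 for Creb3l3, with adjusted p from 0.000453 to 0.0425.

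Of the other cell type markers, those of stellate cells summed to 68.2 to 102 CPM (CON-GFP), 112 to 138 CPM (FPC-GFP) and 135 to 502 CPM (FPC-LIPA), those of cholangiocytes to 28.1 to 47.0, 41.4 to 107 and 38.0 to 210 CPM, and those of endothelial cells to 123 to 201, 165 to 209 and 203 to 316 CPM. Neutrophil markers summed to 1.67 to 3.86, 2.55 to 5.79 and 6.81 to 20.2 CPM, with Mpo at 3 counts or fewer in every group, T and NK cell markers to 0.970 to 3.23, 1.15 to 3.01 and 2.42 to 10.7 CPM, and B and plasma cell markers to 153 to 255, 138 to 197 and 103 to 189 CPM. Most of that last sum is Sdc1 (mean 179, 161 and 120 CPM), which hepatocytes also express. Of the 6 B and plasma cell markers tested, 3 were higher in FPC-LIPA against FPC-GFP (Cd79b, Ms4a1 and Jchain) and 0 lower by edgeR, by DESeq2 or at an unadjusted p under 0.05, with a median log2FC of 1.38.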
